A study of Mus musculus with 10 samples.

Results

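The 2776 loci described here are the long intergenic noncoding RNAs (lincRNAs) that were detected in libraries of isolated mouse round spermatids. They were chosen by their counts: a row of the deposited table was taken when its class was lincRNA and its counts summed to 50 or more over the 10 libraries. These are 49.3% of the 5629 lincRNA rows, in a table of 55401 genes. Of the remaining rows, 1947 held 1 to 49 counts and 906 held 0 in every library. The same sum was reached by 78.6% of the protein-coding rows. Because the sum chose the loci, their levels are given as a description.

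Adult male mice of the outbred CD1 stock were anaesthetised with isoflurane while their testes were bathed for 30 minutes, at 33 °C in the control group and at 42 °C in the heated group. They were allowed to wake and were killed straight away, and round spermatids were then isolated. Each group had 5 mice with 1 library of ribosome-depleted, stranded total RNA per mouse. The labels name no genetic change in either group, and both groups had the anaesthesia, so the comparison is between 2 bath temperatures.

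A lincRNA is a transcript that lies between protein-coding genes and holds no long, conserved reading frame, although some short frames in such RNAs are translated. A few, such as Malat1 and Neat1, build or occupy bodies inside the nucleus, and others act on the gene they neighbour. The testis transcribes more lincRNA loci than other organs do, mainly in meiotic and haploid germ cells, where chromatin is open and many of the loci have no known role. Factors known for driving genes in these cells are CREM, which binds the cAMP response element (CRE), the RFX family, and MYBL1, the MYB factor of meiosis.

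Windows around the annotated start were available for loci matched in RefSeq (GRCm38.p6). Of the 1324 lincRNAs with a symbol there, 1016 had their RefSeq start within 1 kb of the start in the deposited table. Each window runs from 250 bases before the start to 50 bases after it. The 6 windows below were picked after the values were seen. They are the most abundant lincRNA, a pair of abundant loci with a MYB core at the start, a pair with a low p in the temperature comparison, and a locus that was at 0 counts in 1 mouse. Sequences run 5′ to 3′ on the strand of the gene, and capitals mark a motif found on either strand.
Rbakdn (chr5:143165702-143166001, minus strand, no motif): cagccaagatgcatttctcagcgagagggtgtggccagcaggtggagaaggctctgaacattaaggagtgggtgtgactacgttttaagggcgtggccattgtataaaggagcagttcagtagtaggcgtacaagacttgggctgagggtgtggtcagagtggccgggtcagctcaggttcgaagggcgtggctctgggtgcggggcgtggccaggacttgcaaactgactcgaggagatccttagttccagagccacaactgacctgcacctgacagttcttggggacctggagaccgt
1700001L05Rik (chr15:83367248-83367547, minus strand, MYB core): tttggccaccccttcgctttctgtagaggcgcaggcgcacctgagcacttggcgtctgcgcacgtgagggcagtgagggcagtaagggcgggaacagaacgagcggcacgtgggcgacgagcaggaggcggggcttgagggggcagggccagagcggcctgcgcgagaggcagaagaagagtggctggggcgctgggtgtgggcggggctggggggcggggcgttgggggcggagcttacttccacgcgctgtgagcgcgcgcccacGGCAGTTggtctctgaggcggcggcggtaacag
1700008K24Rik (chr17:49113484-49113783, minus strand, MYB core): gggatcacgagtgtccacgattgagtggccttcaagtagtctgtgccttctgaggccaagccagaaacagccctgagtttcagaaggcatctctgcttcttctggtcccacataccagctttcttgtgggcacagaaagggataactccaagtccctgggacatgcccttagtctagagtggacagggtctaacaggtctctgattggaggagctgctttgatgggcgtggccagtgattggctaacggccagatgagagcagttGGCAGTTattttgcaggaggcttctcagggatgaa
4930568G15Rik (chr1:165091881-165092180, minus strand, CRE): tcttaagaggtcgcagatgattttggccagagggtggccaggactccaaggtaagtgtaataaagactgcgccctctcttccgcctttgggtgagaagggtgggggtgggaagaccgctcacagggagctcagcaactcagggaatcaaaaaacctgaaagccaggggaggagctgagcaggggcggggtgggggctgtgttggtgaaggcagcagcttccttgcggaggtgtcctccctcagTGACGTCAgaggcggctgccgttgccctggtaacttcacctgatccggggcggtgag
4933404K08Rik (chr13:23278100-23278399, plus strand, MYB core on the opposite strand): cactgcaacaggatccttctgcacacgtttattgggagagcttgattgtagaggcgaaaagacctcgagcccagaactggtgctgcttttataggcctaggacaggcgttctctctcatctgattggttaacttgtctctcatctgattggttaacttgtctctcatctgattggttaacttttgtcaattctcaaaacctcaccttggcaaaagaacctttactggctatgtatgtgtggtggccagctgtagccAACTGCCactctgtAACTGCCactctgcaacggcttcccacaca
Gm33450 (chr14:94735420-94735719, minus strand, RFX motif): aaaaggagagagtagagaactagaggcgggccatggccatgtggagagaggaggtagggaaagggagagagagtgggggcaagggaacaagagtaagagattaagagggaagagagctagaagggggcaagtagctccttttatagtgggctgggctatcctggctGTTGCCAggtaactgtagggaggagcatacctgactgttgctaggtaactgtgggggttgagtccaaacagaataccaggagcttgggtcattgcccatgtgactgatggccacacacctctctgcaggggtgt

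The motifs searched were the CRE octamer TGACGTCA, which reads the same on both strands, the RFX motif GTTGCCA and the MYB core GGCAGTT. The first base of the MYB core lay 17 bases past the start of 1700001L05Rik and 15 bases past that of 1700008K24Rik. In 4933404K08Rik it occurred at 6 and again at 20 bases past the start, without overlap. The CRE of 4930568G15Rik began 7 bases before the start, and the RFX motif of Gm33450 began 84 bases before it.

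Over the 1016 matched lincRNA windows the RFX motif occurred in 8.17%, the MYB core in 6.00% and the CRE in 2.46%. The shares over all 32851 RefSeq windows of this length were 4.38%, 4.12% and 1.79%. Over all 11588 windows of RefSeq lncRNA genes they were 4.75%, 4.44% and 0.975%. The CRE was held by 5.48% of the 146 windows of lincRNAs with a mean of 10 to 100 CPM (counts scaled to the size of the library after TMM correction), by 1.97% of the 407 at 1 to 10 CPM, by 2.20% of the 363 at 0.1 to 1 CPM, by 1.10% of the 91 under 0.1 CPM and by 0 of the 9 at 100 CPM or more. The RFX motif was held by 4.396% of the 91 windows under 0.1 CPM, 5.79% of the 363 at 0.1 to 1 CPM, 10.8% of the 407, 9.59% of the 146 and 0 of the 9. These shares describe letters in a window and were not tested.

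Total counts per library ran from 60623568 in 42 °C replicate 2 to 117723075 in 33 °C replicate 2, and the lincRNAs held 863887 to 1313194 of them. In 42 °C replicate 2, 16.2% of all counts lay on transposable elements, against 4.62% to 9.07% in the other libraries. The round spermatid markers summed to 1170 to 2185 CPM by library. Those of elongating spermatids summed to 2101 to 6955 CPM and those of spermatocytes to 2289 to 3705 CPM. The lists of 7 other cell types (spermatogonia, Sertoli, Leydig, peritubular, macrophage, endothelial and erythroid) summed to at most 19.03 CPM in any library, with no marker of them at 0 in all libraries. No marker of any list was called different between the temperatures by edgeR. In these bulk samples, fewer cells of a type and less RNA per cell cannot be told apart.

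The lincRNA counts were concentrated on few loci. The 11 loci with a mean of 100 CPM or more held 26.0% of the counts, and 97 loci held 50% of them. A further 252 loci lay at 10 to 100 CPM and held 43.8%. The 983 loci at 1 to 10 CPM held 26.2%, while the 1225 at 0.1 to 1 CPM held 3.86% and the 305 under 0.1 CPM held 0.177%. Protein-coding genes were spread differently: 13.0% of those with a sum of 50 or more reached 100 CPM, against 0.396% of the lincRNAs.

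Just inside the sum that chose the loci were Gm47683, Gm28993 and Gm44662, each with 50 counts in all, and just outside were Gm48803, Gm36278 and Gm14827, each with 49. Names from RIKEN adult testis clones were carried by 571 of the loci (20.6%), which held 46.3% of the counts. Among the 2853 lincRNA rows that did not reach the sum, 26 (0.911%) had such a name. The median exon length was 1062 bases, and 5.72% of the loci had a single exon.

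**Figure D1:**
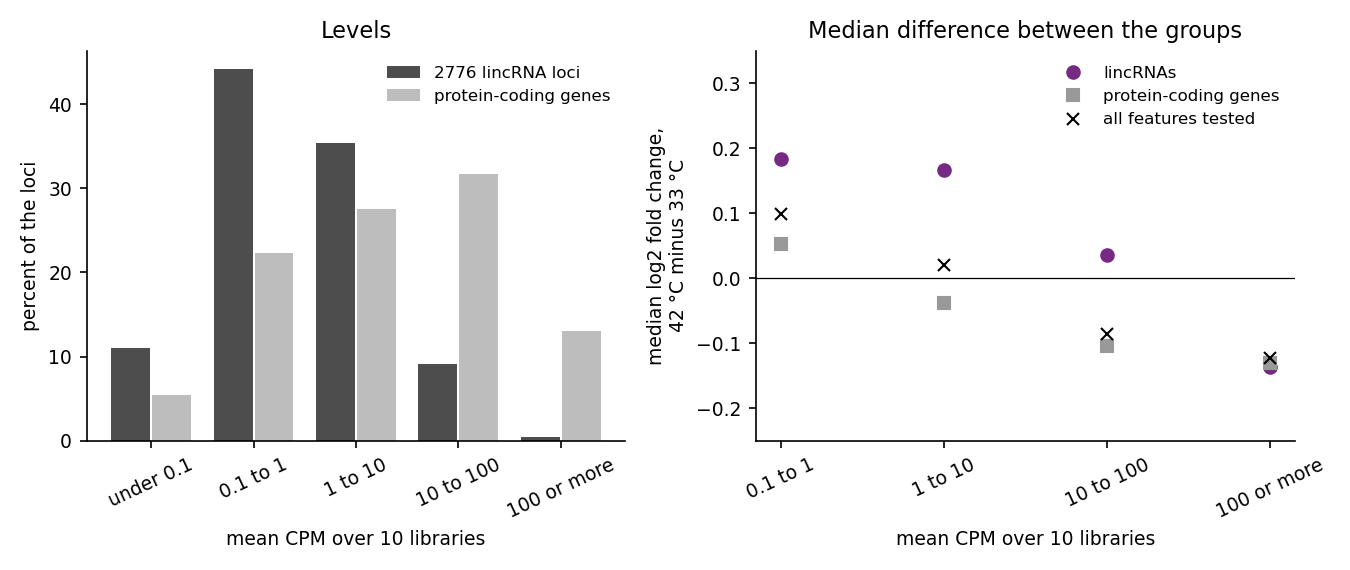
Left, percent of the 2776 lincRNA loci (dark bars) and of protein-coding genes with a sum of 50 or more (light bars) in each class of mean CPM over 10 libraries. Right, median log2 fold change (42 °C minus 33 °C, edgeR) of the tested loci in the 4 upper classes; the lincRNA medians go from 0.18 at 0.1 to 1 CPM to -0.14 at 100 CPM or more, where they lie beside the protein-coding median of -0.13.

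Rbakdn was the most abundant lincRNA, both in CPM and per kb of exon. It is a 3-exon locus (chr5:143164779-143165751, minus strand) that starts 6435 bases past the end of Rbak, a gene for a KRAB zinc finger protein, on the same strand. Its level was 472, 576, 462, 502 and 498 CPM in 33 °C replicates 1 to 5 and 494, 345, 564, 445 and 437 CPM in 42 °C replicates 1 to 5. The groups overlapped, and 42 °C replicate 2 was the lowest library. Per kb of exon its mean level was 754 CPM. Rbak itself had a mean of 0.364 CPM. Rbakdn did not pass the test (log2 difference -0.14, SE 0.14, adjusted p = 0.654, edgeR).

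Next in CPM were Gm2762 (chr13:53393657-53455630, 8 exons) at 441 ± 23.4 CPM at 33 °C and 390 ± 44.2 at 42 °C (SD, n = 5), and Malat1. Malat1, the abundant RNA of nuclear speckles, was at 428, 288, 456, 363 and 408 CPM at 33 °C and at 312, 504, 278, 468 and 348 CPM at 42 °C. Its highest and its lowest library were both at 42 °C, in replicates 2 and 3. Its mean was 389 ± 65.6 against 382 ± 98.7 CPM, a log2 difference of -0.02 (SE 0.18, adjusted p = 0.958, edgeR) that changed sign when the TMM factors were taken over genes alone (0.03). On the scale of CPM per kb of exon Malat1 stood far lower, at 55.2, because its exon is long.

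The other loci at 100 CPM or more are testis transcripts with little known about them. 4930449C09Rik, on chromosome 15, had 399 ± 25.3 CPM at 33 °C and 342 ± 63.5 at 42 °C. The nearest coding gene before it on its strand is Myc, which is far off, about 1727440 bases away. 1700001L05Rik had 356 ± 25.3 and 331 ± 34.7, and 1700008K24Rik had 281 ± 39.4 and 263 ± 43.9. 1700029M20Rik, AY702103 and 1700018B24Rik had means of 208, 191 and 181 CPM. Gm48051 had 133 ± 31.5 CPM at 33 °C and 155 ± 35.9 at 42 °C, and 4930571K23Rik had 199 ± 63.8 and 270 ± 81.9. These last 2 were the only loci at 100 CPM or more with a difference above 0; the other 9 lay below 0, of which Malat1 and 1700008K24Rik changed sign under other settings. None of the 11 was called by edgeR.

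AY702103 had the lowest unadjusted p of the 11 (0.0456, adjusted p = 0.430, edgeR), with 187, 234, 222, 227 and 175 CPM at 33 °C and 192, 144, 184, 180 and 167 CPM at 42 °C. The groups overlapped. Over all loci, the 50 highest in the 33 °C mean and the 50 highest in the 42 °C mean shared 42 names.

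**Figure D2:**
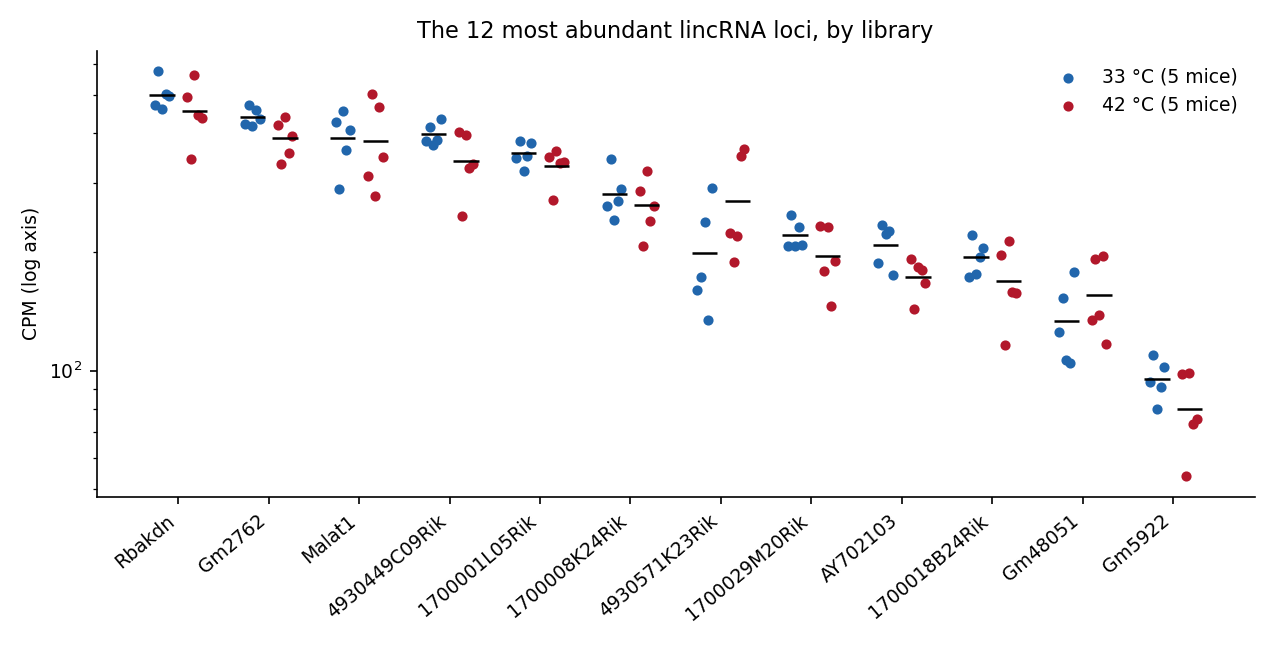
CPM (log axis) of the 12 most abundant lincRNA loci in each library, blue for the 5 mice at 33 °C and red for the 5 at 42 °C, with the group mean as a bar. The groups overlap at each of the 12 loci, from Rbakdn (mean 479 CPM) to Gm5922 (87.5 CPM).

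Per kb of exon, short loci stood higher in the order. After Rbakdn came 1700018B24Rik at 306 CPM per kb, 1700008K24Rik at 287, Gm31072 at 179 and Gm45027 at 177. Gm45027 has an exon length of 78 bases, so this value rests on a very short model. 1700104B16Rik, at 81.5 CPM per kb, starts 14 bases from the start of Gtf2e2, a gene for a subunit of the general transcription factor TFIIE, on the opposite strand. Its level was 64.6 ± 6.56 CPM at 33 °C and 53.1 ± 19.5 at 42 °C, where replicate 2 was at 19.7 and the other 4 at 54.2 to 68.4. Gtf2e2 had a mean of 168 CPM.

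The class lincRNA in the table did not always match other catalogues. Of 1660 loci matched in RefSeq by symbol, 1613 were lncRNA there, 22 were protein-coding and 10 were transcribed pseudogenes. The 22 included 4930571K23Rik (234 CPM), Gm29825 (63.2 CPM), Gm6729 (41.2 CPM) and Gm15104 (30.9 CPM), while 1700018B24Rik was a transcribed pseudogene. An open reading frame of 100 codons or more was present in 471 of the 2764 loci with a gene model in GENCODE M21. AY702103 had the longest such frame of the 12 most abundant loci, at 235 codons, followed by Gm5922 at 140. The class also held Rmrp, the RNA of RNase MRP, at 20.2 ± 18.3 CPM at 33 °C and 16.0 ± 8.93 at 42 °C, and Terc, the RNA of telomerase, at 0.196 ± 0.0239 and 0.172 ± 0.0380 CPM.

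Of the 2776 loci, 2421 passed the filter on low counts and were tested for a difference between the temperatures, and 355 did not. The filter kept a locus with enough counts in at least 5 libraries. edgeR called 2 loci (0.0826%) higher at 42 °C at an adjusted p of 0.05, Slmapos2 and Gm49756. Over all 26025 features tested, 0.0884% were called higher. edgeR called 0 lincRNAs lower, where 0.00384% of all features were called lower. DESeq2 called 6 lower and limma voom called 7, and 64 were lower at an unadjusted p of 0.05 in edgeR.

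Slmapos2 was at 1.79, 1.35, 1.70, 1.64 and 1.36 CPM in the 33 °C libraries and at 3.07, 3.60, 2.88, 2.83 and 3.18 CPM in the 42 °C libraries. All 42 °C values lay above all 33 °C values. Its mean rose from 1.57 ± 0.200 to 3.12 ± 0.307 CPM (n = 5 each), a log2 difference of 0.99 (SE 0.16, adjusted p = 0.0383, edgeR). The locus (chr14:26389199-26395521, plus strand, 2 exons) lies inside the span of another lincRNA on the same strand, 4933413J09Rik, so reads of the one could be counted for the other. 4933413J09Rik had 11.3 ± 1.67 CPM at 33 °C and 16.2 ± 2.02 at 42 °C (log2 0.52, SE 0.14, adjusted p = 0.307, edgeR). Slmap, a gene for a membrane protein on the opposite strand 17.6 kb away, had 57.9 ± 7.23 and 52.2 ± 7.34 CPM (adjusted p = 0.616, edgeR). Noncoding loci farther off also had higher means at 42 °C, without passing the test. The lincRNA Gm34059, 64.2 kb away, had 15.4 ± 2.44 and 20.1 ± 3.14 CPM (log2 0.39, adjusted p = 0.398, edgeR). The processed pseudogene Gm18578, 84.3 kb away, had 0.653 ± 0.256 and 1.86 ± 0.755 CPM (log2 1.51, SE 0.33, adjusted p = 0.160, edgeR).

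Gm49756 (chr16:30866139-30870724, minus strand, 3 exons) was at 2.18, 2.20, 2.98, 2.58 and 1.88 CPM at 33 °C and at 4.49, 4.69, 4.96, 4.93 and 4.24 CPM at 42 °C. The groups did not overlap. Its mean rose from 2.37 ± 0.425 to 4.66 ± 0.303 CPM, a log2 difference of 0.98 (SE 0.16, adjusted p = 0.0426, edgeR). No RefSeq window was matched for either called locus. Leaving out any 1 of the 10 libraries ended the call of Slmapos2, and for Gm49756 any but 33 °C replicate 3 did. With a 42 °C library left out, the adjusted p was 0.0619 to 0.110 for Slmapos2 and 0.0713 to 0.107 for Gm49756 (edgeR). The replicate block (adjusted p = 0.574 and 0.428, edgeR) and a filter at a mean of 1 CPM (adjusted p = 0.159 for both, edgeR) also ended both calls. Both differences stayed between 0.89 and 1.07 on the log2 scale under every alternative run.

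Ranked by p, the next loci above 0 with a mean of at least 1 CPM were 4930568G15Rik, 4930529N20Rik, Gm5149 and Gm39117. 4930568G15Rik, whose CRE window is printed above, was at 0.629, 2.43, 0.883, 0.982 and 0.338 CPM at 33 °C and at 3.09, 5.32, 2.53, 4.86 and 3.37 CPM at 42 °C. The groups did not overlap, although 33 °C replicate 2 came close to the lowest 42 °C library. The log2 difference was 1.86 (SE 0.43, adjusted p = 0.211, edgeR). With 33 °C replicate 2 left out it was 2.48 and passed the edgeR threshold (adjusted p = 0.0397); with any other single library left out it was 1.67 to 1.97 and did not. Gm39117, on chromosome 7 with Th as the nearest coding gene before it on its strand, was at 0.192 to 1.49 CPM at 33 °C and at 1.78 to 3.43 CPM at 42 °C (log2 1.57, SE 0.41, adjusted p = 0.290, edgeR). 4930529N20Rik and Gm5149 each had a log2 difference of 1.01 and an adjusted p of 0.280 in edgeR.

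On the lower side the smallest p belonged to Gm47709, Mir124-2hg and 4933404K08Rik. Gm47709 (chr13:37248660-37252165, plus strand) was at 5.37, 4.09, 5.06, 4.503 and 4.01 CPM at 33 °C and at 2.52, 2.62, 2.22, 3.47 and 2.09 CPM at 42 °C, with no overlap (log2 -0.83, SE 0.17, adjusted p = 0.145, edgeR). Gm30600, another lincRNA, lies 3.75 kb from it on the opposite strand and had 1.02 ± 0.346 CPM at 33 °C and 0.335 ± 0.264 at 42 °C (log2 -1.63, SE 0.48, adjusted p = 0.348, edgeR). Both members of this neighbouring pair thus had lower means at 42 °C, without passing the edgeR test.

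Mir124-2hg, a host gene of the microRNA miR-124, was at 1.62 to 3.08 CPM at 33 °C and at 1.14 to 1.43 CPM at 42 °C (log2 -0.87, SE 0.19, adjusted p = 0.167, edgeR). 4933404K08Rik, whose window with a repeated MYB core is printed above, was at 7.28, 7.20, 6.596, 6.65 and 6.75 CPM at 33 °C and at 5.08, 5.19, 5.36, 3.88 and 4.54 CPM at 42 °C. The 33 °C values lay close together and above every 42 °C value, with a log2 difference of -0.52 (SE 0.13, adjusted p = 0.278, edgeR). Gm26754, 1700054O05Rik and Gm48168 followed, with log2 differences of -0.64, -0.61 and -0.56 and adjusted p of 0.280, 0.348 and 0.369 (edgeR).

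**Figure D3:**
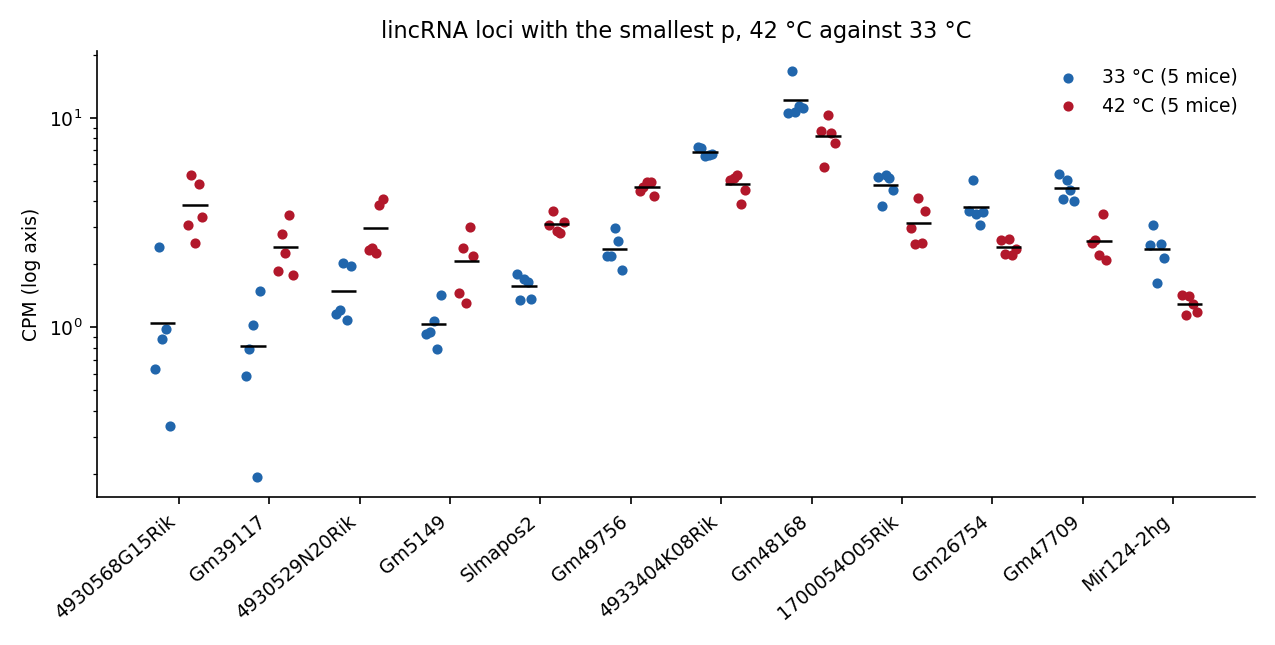
CPM (log axis) in each library for the 6 lincRNA loci of smallest p in each direction with a mean of at least 1 CPM, ordered by log2 difference, with the group mean as a bar. Slmapos2 (1.57 against 3.12 CPM) and Gm49756 (2.37 against 4.66 CPM) passed the edgeR threshold; the other 10 did not.

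The call depended on the tool. DESeq2 called 37 lincRNAs higher (1.53%) and 6 lower (0.248%), beside 0.988% and 0.119% of all features. limma voom with sample weights called 22 higher (0.909%) and 7 lower (0.289%), beside 0.476% and 0.111% of all features. The 2 tools shared 17 loci, 39.5% of the DESeq2 list and 58.6% of the limma voom list, with 13 higher and 4 lower in both. The 2 edgeR calls were among the 17, and so were 4930568G15Rik, Gm39117, Gm47709 and Mir124-2hg. 4933413J09Rik, which spans Slmapos2, had an adjusted p of 0.0240 in DESeq2.

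At an unadjusted p of 0.05 in edgeR, 382 of the 2421 loci (15.8%) were higher at 42 °C and 64 (2.64%) were lower. Over all features tested these shares were 8.56% and 2.94%. The count of higher loci moved with single mice: with 42 °C replicate 4 left out it was 184 (7.46%), and with replicates 1, 4 or 5 of the 33 °C group left out in turn it was 233 (9.41%), 238 (9.62%) or 647 (26.1%). The shares over all features moved with it, to 4.51%, 5.55%, 5.39% and 15.1% in the same order. The 42 °C values lay above all 33 °C values at 53 loci (2.19%) and below all of them at 18 (0.743%), where the shares over all features were 1.32% and 0.68%.

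The median log2 difference of the tested lincRNAs was 0.16 (quartiles -0.13 and 0.52), and 62.7% of them were above 0. Over all features the median was -0.01 with 48.9% above 0, and over 16113 protein-coding genes it was -0.07 with 40.4% above 0. Other classes had medians of 0.03 (processed transcripts), 0.08 (processed pseudogenes), 0.10 (antisense genes) and 0.17 (the class TEC), and the subfamilies of transposable elements had a median of 0.27. The lincRNA median ranged from 0.09 to 0.23 over the alternatives run.

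In the 4 classes from 0.1 CPM up, the median was lower at higher levels. It was 0.18 for the 1166 tested lincRNAs at 0.1 to 1 CPM, 0.17 for the 983 at 1 to 10 CPM, 0.04 for the 252 at 10 to 100 CPM and -0.14 for the 11 at 100 CPM or more. Protein-coding genes of the same levels had medians of 0.05, -0.04, -0.10 and -0.13. All features tested had 0.10, 0.02, -0.09 and -0.12. Under 0.1 CPM only 9 lincRNAs were tested, with a median of -0.14, and the coding genes there had 0.02. The lincRNA median thus lay above the protein-coding one in the 3 classes from 0.1 to 100 CPM. The highest class holds only 11 loci. In the lowest, the 9 tested of 305 loci are those that passed a filter on counts, so they may not stand for the class. Nothing is concluded from these 2 classes.

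Seen by library, the low classes and the top loci moved in opposite ways in some mice. In 42 °C replicate 2 the median deviation from the mean of the 10 libraries was 0.32 on the log2 scale for lincRNAs at 0.1 to 1 CPM and -0.33 for those at 100 CPM or more. In 33 °C replicate 2 the same values were -0.35 and 0.19. The medians over all tested features stayed between -0.03 and 0.05 in every library. These 2 libraries also had the highest and the lowest share of counts on transposable elements, at 16.2% and 4.62%.

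**Figure D4:**
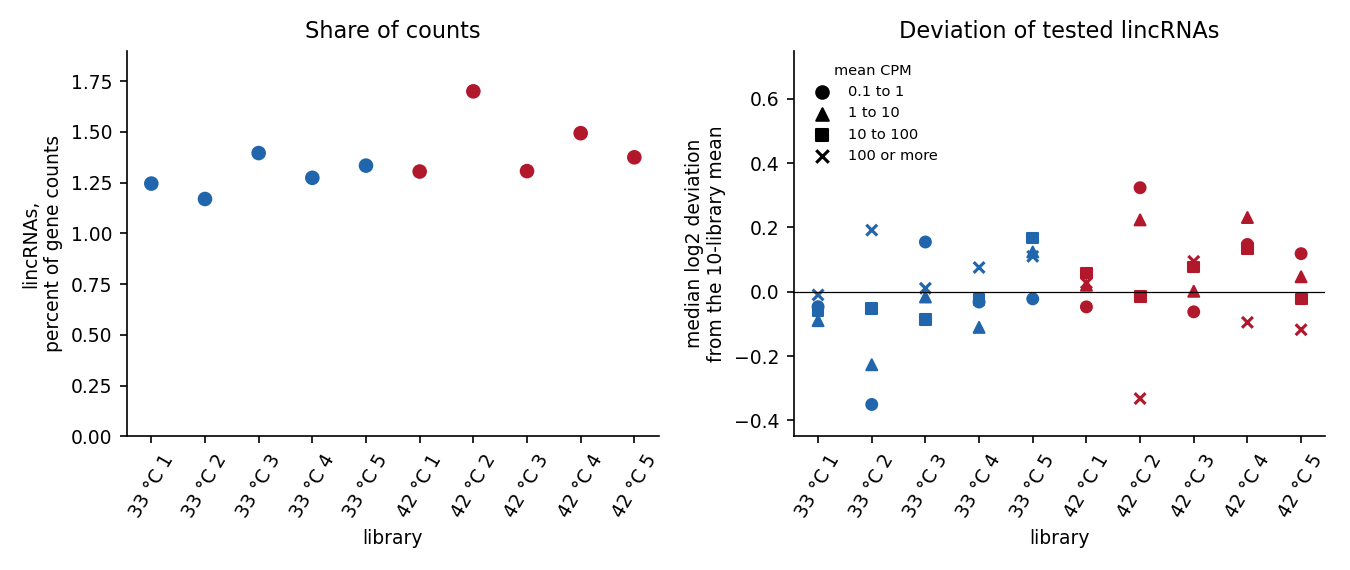
Left, percent of each library's gene counts on the 2776 lincRNAs, blue at 33 °C and red at 42 °C; 42 °C replicate 2 is highest at 1.70%. Right, median log2 deviation of tested lincRNAs from the mean of the 10 libraries, by class of mean CPM; 42 °C replicate 2 spans 0.32 to -0.33 and 33 °C replicate 2 spans -0.35 to 0.19.

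The lincRNAs together held 1.28% ± 0.0862 of the gene counts in the 5 control mice and 1.44% ± 0.166 in the 5 heated mice (mean ± SD). By library the share was 1.25%, 1.17%, 1.40%, 1.27% and 1.33% at 33 °C and 1.31%, 1.70%, 1.31%, 1.49% and 1.38% at 42 °C, so the groups overlapped. The difference of 0.152 percentage points did not pass an exact two-sided permutation test (p = 0.0952, adjusted over 5 shares 0.159, smallest possible p 0.00794). Without 42 °C replicate 2 it was 0.0864 points (exact permutation p = 0.190).

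Across the 10 libraries the lincRNA share went down as the summed level of the spermatocyte markers went up (Pearson r = -0.962, permutation p = 9.0e-05, adjusted over 3 relations 0.00027; Spearman rho = -0.855, permutation p = 0.003, adjusted 0.009). Without the 2 libraries farthest from the median, 42 °C replicate 2 and 33 °C replicate 2, r was -0.831. Most of that sum came from Ldhc, a lactate dehydrogenase of germ cells, at 2544 CPM. With Ldhc left out, a choice made after the values were seen, r was -0.576 (permutation p = 0.0866) and rho was -0.697 (permutation p = 0.0307). The share of transposable elements gave r = 0.841 (permutation p = 0.0116, adjusted 0.0173) but rho = 0.491 (permutation p = 0.155), and r was 0.183 without the same 2 libraries, so that relation rests on them. Elongating spermatid markers gave r = 0.178 (permutation p = 0.587). These relations pool the libraries of both temperatures, and none was taken within 1 group. The spermatocyte sum ran from 3055.5 to 3705.4 CPM at 33 °C and from 2289.3 to 3337.4 CPM at 42 °C. All these measures are shares of the same libraries, and the part of cell composition in the lincRNA difference was not tested.

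Position beside coding genes divided the loci into 3 classes. A start within 20 kb past the end of a coding gene on the same strand was found for 293 loci that were not divergent. Divergent loci, with a start within 2 kb of a coding gene's start on the opposite strand, were assigned first and numbered 222. Neither applied to 2261. Median log2 differences were 0.12, -0.09 and 0.19, so the divergent loci lay close to the protein-coding median of -0.07. The 42 °C values lay above all 33 °C values at 11 of 247 tested loci past a coding gene (4.45%), at 0 of 199 divergent loci and at 42 of 1975 others (2.13%), where the share over all features was 1.32%. They lay below all 33 °C values at 0, 2 (1.01%) and 16 (0.810%) loci of these classes, beside 0.68% of all features. At an unadjusted p of 0.05 in edgeR, 13 divergent loci (6.53%) were higher and 6 (3.02%) were lower, near the shares of 8.56% and 2.94% over all features.

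The divergent loci held 8.36% ± 0.450 of the lincRNA counts at 33 °C and 7.66% ± 0.666 at 42 °C (exact permutation p = 0.0794, adjusted 0.159). Loci past a coding gene held 13.6% ± 0.608 and 13.1% ± 0.469 (exact permutation p = 0.151, adjusted 0.188), and the others 78.0% ± 1.03 and 79.2% ± 1.03 (exact permutation p = 0.0873, adjusted 0.159). None of the 3 passed. Rbakdn alone made up the difference for loci past a coding gene: without it the difference was -0.00828 percentage points in place of -0.524.

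On the autosomes 54.1% of the lincRNA rows reached the sum of 50, on the X chromosome 50 of 99 (50.5%) and on the Y chromosome 33 of 551 (5.99%). Of the coding rows, 72.6% on the X and 52.9% on the Y reached it. Both sex chromosomes are largely silenced in meiosis, and parts of them are transcribed again in round spermatids. The highest X-linked locus, Gm15104, had 25.9 ± 10.3 CPM at 33 °C and 35.8 ± 8.69 at 42 °C. 1700010D01Rik followed with 22.4 ± 7.00 and 30.6 ± 5.51 CPM. The highest locus annotated on the Y chromosome, Gm47283 (chrY:90784738-90816465), had 25.8 ± 9.73 and 27.3 ± 15.3 CPM. Whether Gm47283 lies in the part of the Y shared with the X was not examined. The next locus on the Y, Gm29277, had 3.07 ± 1.32 and 4.92 ± 2.10 CPM. Many Y loci and the X-linked Astx loci are near-copies of one another, so their counts depend on how shared reads were placed. Median log2 differences were 0.19 for the X, 0.11 for the Y and 0.16 for the autosomes. The X share of lincRNA counts was 1.27% ± 0.173 at 33 °C and 1.45% ± 0.211 at 42 °C (exact permutation p = 0.206).

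Of 57 well-known long noncoding RNAs looked up, 23 are among the 2776 loci. A further 27 have another class in the table and 6 are lincRNA rows under 50 counts, H19 and Hotair among them. None of the 23 was called by edgeR; their median log2 difference was -0.11, with 7 above and 16 below 0. At an unadjusted p of 0.05, Pvt1 was higher and Snhg15 was lower, each 4.35% of the 23, beside 8.56% and 2.94% of all features.

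Pvt1, a neighbour of Myc that hosts several microRNAs, was at 6.61, 7.72, 5.48, 5.48 and 8.94 CPM at 33 °C and at 9.08, 10.05, 10.5, 10.8 and 10.3 CPM at 42 °C. The groups did not overlap, and 33 °C replicate 5 lay just under the lowest 42 °C library. The log2 difference was 0.57 (SE 0.16, adjusted p = 0.318, edgeR). Snhg15, a host gene of a small nucleolar RNA, had 0.600 ± 0.123 CPM at 33 °C and 0.396 ± 0.105 at 42 °C (log2 -0.60, SE 0.25, adjusted p = 0.416, edgeR).

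Neat1, the scaffold of paraspeckles, was at 37.5, 18.1, 47.4, 30.96 and 16.9 CPM at 33 °C and at 18.6, 43.2, 19.03, 22.2 and 26.3 CPM at 42 °C. Both groups covered more than a doubling of level from their lowest to their highest mouse, and the difference was -0.22 (SE 0.31, adjusted p = 0.743, edgeR). Oip5os1, a conserved RNA that lowers a microRNA, was even between mice at 27.4 ± 2.37 and 26.5 ± 2.82 CPM. 2900097C17Rik, the mouse form of NORAD, which binds Pumilio proteins, had 23.8 ± 5.58 and 19.3 ± 2.15 CPM.

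RNAs of the X inactivation centre were low, as Xist had 0.207 ± 0.0342 CPM at 33 °C and 0.270 ± 0.0827 at 42 °C. Jpx, at the same centre, had 0.952 ± 0.181 and 1.09 ± 0.246, and Ftx had 2.72 ± 0.710 and 3.45 ± 1.25 CPM. From the imprinted Dlk1-Dio3 region Mirg had 2.42 ± 1.05 and 2.64 ± 1.07 CPM, and Meg3 had 0.218 ± 0.200 and 0.189 ± 0.121 CPM. Mir17hg, the host of a microRNA cluster, had 0.429 ± 0.245 and 0.267 ± 0.170 CPM.

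Levels of lincRNAs varied between mice of one group. Among loci with a mean of at least 1 CPM, the median coefficient of variation at 33 °C was 26.3% for 1246 lincRNAs and 15.4% for 12404 protein-coding genes. At 1 to 10 CPM it was 27.6% and 20.96%, and at 10 to 100 CPM it was 21.7% and 13.7%. At 100 CPM or more the lincRNAs had 10.4% and the protein-coding genes 11.5%.

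At 31 lincRNAs (2.49% of the 1246) the highest of the 10 libraries was at least 10-fold above the lowest, with a floor of 3 counts per library for low values. For protein-coding genes the share was 0.830%. In the class of 1 to 10 CPM the shares were 3.05% and 1.95%. The ratio spans both temperatures, so for some loci it mixes a difference between the groups with the spread between mice. Within a group, 4930568G15Rik spanned 7.17-fold at 33 °C and 2.11-fold at 42 °C, and Gm39117 spanned 7.75-fold and 1.93-fold. These 31 were picked by the ratio over the 10 libraries, so the ratios are a description. None of the 31 was called by edgeR. At 2 of them (6.45%), 4930568G15Rik and Gm39117, all 42 °C values lay above all 33 °C values. A difference between the temperatures itself helps a locus into the 31. The 6.45% therefore cannot be compared with the 1.32% over all features.

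Gm33340 (chr12:42966884-43034217, minus strand, 6 exons) had 0 counts in 33 °C replicate 1 and 1090, 470, 322 and 660 counts in the other 33 °C libraries. At 42 °C it had 482, 291, 494, 189 and 507 counts. Gm33450, whose RFX window is printed above, had 0 counts in 33 °C replicate 2 and 188 to 310 in the other 33 °C libraries, and 73 to 267 at 42 °C. In both loci a single mouse had no count, which allows up to 3, where the other 9 all had counts.

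4930524O08Rik had 12 counts in 33 °C replicate 1, against 482 to 1427 in the other 9 libraries. 4933436I20Rik, which lies on the same strand as the coding gene Pid1, had 6 counts in each of 33 °C replicates 2 and 5 and 346 to 982 in the other 8, and Pid1 also differed at least 10-fold between libraries. Gm32846 had 1 and 2 counts in 33 °C replicates 3 and 5 and 97 to 269 elsewhere. The low libraries thus differed from locus to locus.

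Some loci were low in most mice. AC106834.1 had 554, 643 and 669 counts in 33 °C replicates 3 and 4 and 42 °C replicate 5, and 11 to 23 in the other 7. Gm43446 had 166 to 394 counts in 33 °C replicates 1 to 4 and 293 in 42 °C replicate 5, and 6 to 20 in the other 5. Gm45868 had 0 counts in 42 °C replicates 1, 2 and 3, and 74 to 263 counts in each of the other 7. Gm36677 had 3, 3 and 5 counts in the same 3 libraries, 13 in 33 °C replicate 2 and 93 to 632 in the rest.

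Some neighbouring loci had their lowest library in common and others did not, in examples picked after the values were seen. On chromosome 12, 1700083H02Rik, Gm40438 and 4930404H11Rik lie within 500 kb of one another, and their lowest library was 33 °C replicate 2 in each case, with 10, 6 and 41 counts. On chromosome 5, 4930437M23Rik, 4930558F17Rik and Gm33847 were lowest in 42 °C replicate 5, with 21, 47 and 48 counts against 172 to 1189 in the other libraries. On chromosome 14, by contrast, the neighbours Gm4251 and 4930429C20Rik differed: Gm4251 was highest in 33 °C replicate 5 (1054 counts), where 4930429C20Rik was lowest (10 counts). Around the chromosome 5 loci, the coding genes Gm8922, Gm8871, Gm8857 and Speer1 also differed at least 10-fold between mice. These chromosome 5 genes belong to a family of near-copies, 4930558F17Rik and Gm33847 having the same exon length of 786 bases, so reads may have been placed on either. Within 500 kb, 11 of the 31 loci had another gene of any class that differed at least 10-fold. Of 161 coding neighbours within that distance, a gene being counted once for each locus it lies near, 9 did. These 9 lay near 4 of the loci. They were 3, 3 and 2 near the chromosome 5 loci 4930437M23Rik, 4930558F17Rik and Gm33847, and 1 (Pid1) near 4933436I20Rik.

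The libraries 42 °C replicates 1 and 3 were alike at these loci. They differed 5-fold or more at 0 of the 31, whereas each of the other 44 pairs of libraries differed so at 4 to 16. Over genes, the chi-square of their counts was 13.4 per degree of freedom, and at least 42.5 in every other pair, so they differed by more than counting noise. They were kept as 2 libraries, as labelled; whether they came from closely related animals or from 1 animal was not tested. With their counts summed into 1 library, a choice made after the data were seen, edgeR called 0 lincRNAs higher, with 410 (16.7%) higher at an unadjusted p of 0.05, beside 9.45% of all features in that fit.

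**Figure D5:**
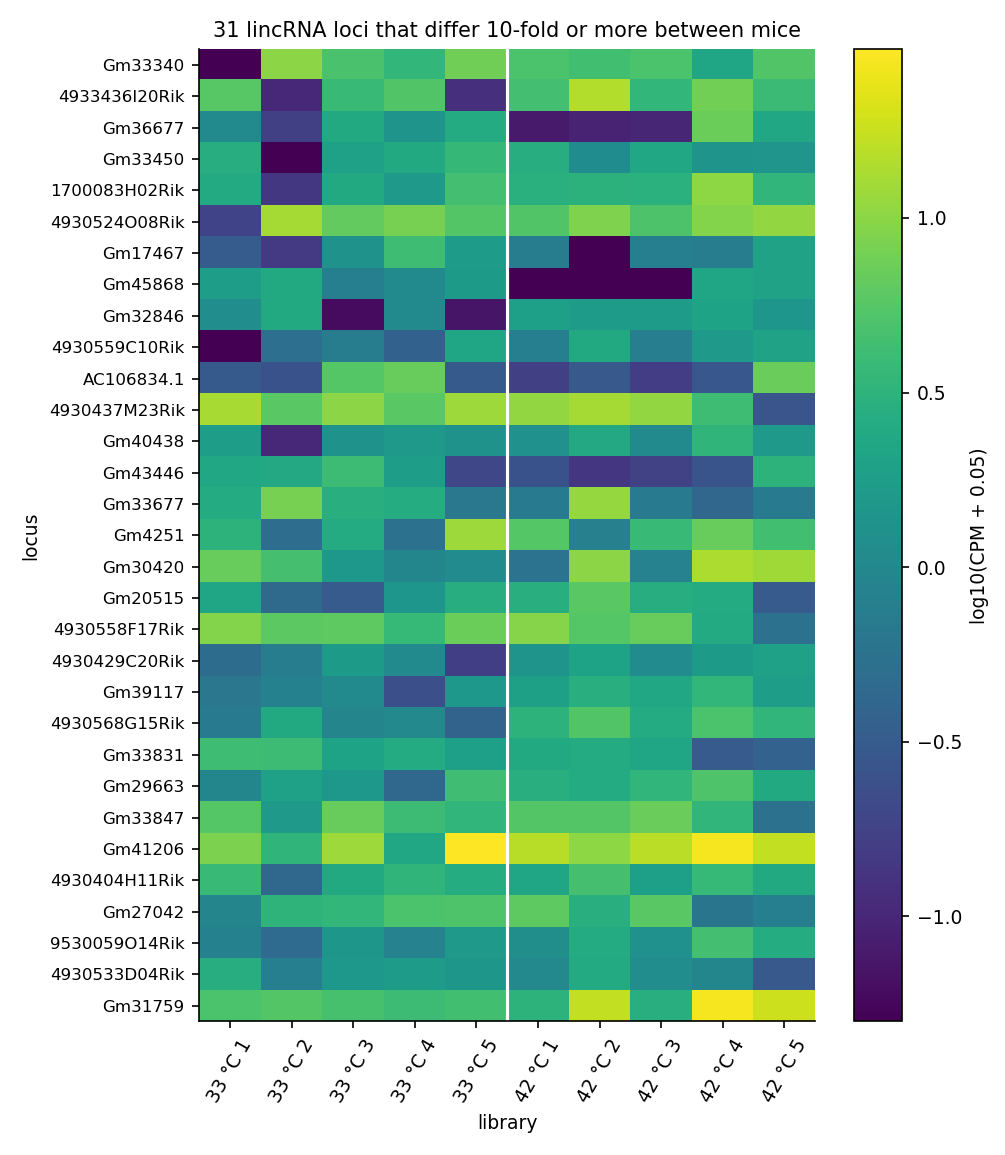
Level of the 31 lincRNA loci whose highest library was at least 10-fold above their lowest, by library, as log10(CPM + 0.05); the white line parts the 33 °C from the 42 °C mice. Dark cells mark low mice, such as 33 °C replicate 1 for Gm33340 and 42 °C replicates 1 to 3 for Gm45868.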

How the data were processed

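Raw read counts per gene and per subfamily of transposable elements were deposited as 1 table; the values are whole numbers with unequal sums. Trim Galore, cutadapt, DRAGEN, GRCm38 and mm10 are named in the submitters' processing notes. How reads were counted, with which strand setting and with what rule for multiple alignments is not given in the sources used here, so overlapping, antisense and multicopy loci are uncertain. Groups and replicates came from the labels, with 5 mice per group. The lincRNA class is the table's, and 2750 of 2764 loci found in GENCODE M21 had identical coordinates.

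Counts of all features were fitted with edgeR 4.0.16 (quasi-likelihood test, R 4.3.3), with TMM factors over genes and transposable elements, filterByExpr (minimum count 10, minimum total 15) and Benjamini-Hochberg adjustment over 26025 features at 0.05. CPM, folds and shares were computed from these counts. DESeq2 1.42.0, limma 3.58.1 (voom), other filters and scalings, a replicate block and leaving out each library were alternatives. The fits were tested on simulated data. Shares of counts were compared with exact permutation tests over 252 assignments, and relations with 100000 permutations.

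Named loci were the 12 of highest CPM, the 10 of highest CPM per kb, all called loci, the 6 of smallest p in each direction at 1 CPM or more, the listed known RNAs and the 6 with the largest range between mice. The loci and lists were chosen with earlier results of these data known. Promoter windows are from RefSeq (GRCm38.p6); 421 of 441 windows with the annotated start began with the same 30 bases as a transcript.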

Additional observations from a re-analysis of the deposited data

Results flagged for a closer look

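A library stood far from the other 4 of its group in 10 of 114 groups examined (8.77%), by the ratio of its gap to the whole range. Chance gives about 1 in 20 when groups are independent and their values are normally distributed. These groups are loci and shares of the same 10 libraries, so the 8.77% cannot be judged against that rate. Of the shares, 33 °C replicate 5 had the lowest share of lincRNA counts on loci past a coding gene, 12.5% against at least 13.7% in the other 4, and the highest share on loci with no such neighbour, 79.8% against 77.2% to 77.8%.

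Of single loci, 1700001L05Rik was lowest in 42 °C replicate 2 at 271.8 CPM, where the others had 337 to 361. In the same library Lncpint, an RNA induced by p53, was highest at 8.20 CPM against 2.86 to 3.83, and Mir17hg was highest at 0.563 CPM against 0.134 to 0.231. In 33 °C replicate 2 the loci Gm26754 and Gm48168, both on chromosome 13, were highest at 5.06 CPM against 3.09 to 3.61 and at 16.8 CPM against 10.5 to 11.4. In 33 °C replicate 3 Meg3 was highest at 0.568 CPM against 0.0905 to 0.199, and Trp53cor1, another p53-induced RNA, was highest at 0.426 CPM against 0.101 to 0.181. Ftx was highest in 33 °C replicate 1 at 3.94 CPM against 2.08 to 2.56.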

How the results depend on the processing

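The count of lincRNAs called higher at 42 °C was 2 in edgeR. It was 37 in DESeq2 (1.53%, beside 0.988% of all features) and 22 in limma voom (0.909%, beside 0.476%). With no filter beyond a count above 0 it was 4 of 2776 (0.144%), beside 73 of 46495 features. It was 0 with a mean of at least 1 CPM and 0 with 42 °C replicates 1 and 3 summed. Leaving out 1 library gave 0 to 1. The count called lower was 0 in edgeR. It was 6 in DESeq2 (0.248%, beside 0.119% of all features) and 7 in limma voom (0.289%, beside 0.111%). With the replicate number as a block it was 0 in both directions, with 279 (11.5%) higher at an unadjusted p of 0.05, beside 5.88% of all features. Deviations from the group means correlated at -0.411 to -0.122 between same-numbered libraries and at -0.39 to 0.433 between the others, and 0 of 10 libraries correlated best with its own number, so the numbers were not taken to pair the mice. Slmapos2 and Gm49756 kept their direction in all 18 alternatives. Leaving out 1 library moved the difference in share to -0.793 to -0.378 percentage points for loci past a coding gene (exact permutation p = 0.0159 without 33 °C replicate 5), to -0.897 to -0.532 for divergent loci (p = 0.0476 without 42 °C replicate 1) and to 0.910 to 1.67 for all others (p = 0.0238 without 33 °C replicate 5). Malat1 turned to above 0 with TMM over genes only (0.027), no filter (0.029), a mean of at least 1 CPM (0.011) and the summed libraries (0.054), and ran from -0.109 to 0.0689 with 1 library left out. 1700008K24Rik was 0.045 in limma voom and ran from -0.180 to 0.0301 with 1 library left out. The cause was not tested. Gm42418, Gm26917 and AY036118 are not among the loci, so the alternative without them was not run. For loci under 1 CPM, few counts per library limit what can be seen.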

Other observations

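Gm15669 (chr1:67792481-67805324, plus strand) was not tested, since it had counts in few libraries. It had 249 counts in 33 °C replicate 5, 274 in 42 °C replicate 4 and 0 in each of the other 8 libraries. Its exon length is 526 bases.

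Among the 22 loci that RefSeq lists as protein-coding, Gm29825 had 44.6 ± 20.4 CPM at 33 °C and 81.8 ± 39.8 at 42 °C (log2 0.87, SE 0.38, adjusted p = 0.428, edgeR). Gm6729 had 29.3 ± 11.1 and 53.1 ± 21.3 CPM (log2 0.86, SE 0.31, adjusted p = 0.386, edgeR).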
